A study of Mus musculus with 12 samples.

Results

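Ribosomal protein pseudogenes are the subject here: the rows of the total RNA count table whose symbol is that of a ribosomal protein gene followed by "-ps" and a copy number, such as Rps2-ps10. The rule took 310 of the 49489 rows, 195 named after proteins of the large ribosomal subunit (Rpl) and 115 after proteins of the small subunit (Rps). Their names point to 65 parent symbols, of which 64 have a row of their own in the table. Each pseudogene is set beside that parent.

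The libraries came from a pulldown of Gas5, the host RNA of several small nucleolar RNAs, made in primary hippocampal neurons of newborn mice after 16 days in culture. Total RNA was sequenced in 3 libraries titled antisense and 3 titled sense, out of 12 samples in the series, and no genotype, drug or other treatment is named for either group. The labels leave unsaid whether antisense or sense served as the capture, and the 2 words therefore stand here as group names. Nor do they say whether the libraries of a group are separate cultures, so the p-values below speak only of how far these libraries vary, and that variation may be technical.

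Ribosomal proteins assemble with ribosomal RNA into the subunits that translate mRNA, and growing cells keep the mRNAs of those proteins among the most abundant they make. Such mRNAs have been copied back into DNA many times by the reverse transcriptase of LINE-1 elements, which left intronless processed pseudogenes scattered over the genome, usually without the parent's promoter and with disabling mutations. Many lie inside other genes, where the host's primary transcript can carry them, and a few are transcribed from a nearby promoter. Because a pseudogene and its parent can be nearly identical over most of their length, short reads are divided between them by an estimate, so single values of these rows are uncertain. They are uncertain also wherever the row lies inside another gene, since the sources used here do not say whether counting used strand.

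The start of 1 copy is shown beside that of its parent: a stretch shared with the parent's transcript, and the sequence before each start. Rpl31-ps12 lies on the minus strand of chromosome 16, and its parent Rpl31, a large subunit protein gene near the exit of the peptide tunnel, lies on the plus strand of chromosome 1. Within the first 50 bases after the annotated start, both hold the same stretch of 23 bases with 1 mismatch, C11T, where positions count from 1 at the 5′ end of the stretch and the parent's base comes first. The stretch begins at base 28 of Rpl31 and at base 17 of Rpl31-ps12, counted from 1 at the annotated start. Sequences taken from the annotated starts are thus out of register with the stretch. A count of like positions before the starts therefore cannot show whether sequence is shared there. Directly before the start the sequences are alike at 16 of 60 positions, marked by capitals below in the RefSeq GRCm38.p6 sequence, read 5′ to 3′ on each gene's own strand, chr1:39367791-39367850 (+) for the parent and chr16:16820197-16820256 (-) for the copy.
Rpl31: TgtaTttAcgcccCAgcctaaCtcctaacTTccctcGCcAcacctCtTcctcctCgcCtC
Rpl31-ps12: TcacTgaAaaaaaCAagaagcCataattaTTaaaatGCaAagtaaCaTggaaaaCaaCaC
The parent's window holds C or T at 46 of 60 positions and A at 9, and the copy's window C or T at 20 and A at 33. Transcripts of ribosomal protein genes are known to start within runs of C and T. The RefSeq table held promoter windows for 2 of the 310 pseudogenes, Rpl31-ps12 and Rps18-ps4. The table names the gene type of Rpl31-ps12 as protein coding, whereas 291 of the 302 pseudogenes it lists are typed as pseudogenes. The authors' deposited table types 292 of the 310 as processed pseudogenes.

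Total counts were 5775052 to 10424167 per library. Gas5 took 9.71% to 14.2% of them in antisense and 32.7% to 57.1% in sense. After TMM normalisation, a different scale from these shares, its log2 difference was -2.78 with a standard error of 0.286 (edgeR quasi-likelihood test, Benjamini-Hochberg adjusted p = 3.77e-06). Without Gas5, 5148971 to 5399527 counts remained per antisense library and 4092306 to 4469297 per sense library. Genes with a count above 0 numbered 29838 to 30664 in antisense and 25408 to 26000 in sense. All differences are given as antisense minus sense after TMM normalisation, and levels are in CPM, counts scaled to the normalised library size. Of the marker lists, neurons summed to 768 to 965 CPM in antisense against 972 to 1220 CPM in sense, astrocytes to 825 to 1046 and 941 to 1236 CPM, and the oligodendrocyte lineage to 276 to 314 and 321 to 417 CPM. Vascular markers summed to 11.8 to 17.6 CPM and 15.2 to 17.5 CPM. The 5 microglial markers, at 15.3 to 19.5 CPM against 8.69 to 10.8 CPM, and the 3 erythroid markers, at 15.04 to 16.8 CPM against 0 to 0.472 CPM, each had 1 member that passed as higher in antisense, P2ry12 and Alas2. Syn1 of the neuronal and Aldh1l1 of the astrocyte markers passed as lower (log2 differences -0.69 and -0.46). The haemoglobin genes Hbb-bs and Hba-a1 were at a mean of 0.0444 and 0.217 CPM in antisense against 0 and 0.157 CPM in sense, and the part of any of these cell types in what follows was not tested.

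Most ribosomal protein pseudogenes had few reads or none. A count above 0 in at least 1 of the 6 libraries was found for 202 of the 310, and 36 had one in all 6. Of the 202, 85 were seen in antisense only, 18 in sense only and 99 in both groups. Of all 35305 rows of the table above 0, 6136 were seen in antisense only, 1313 in sense only and 27856 in both. Single antisense libraries held 126, 121 and 128 pseudogenes above 0, and single sense libraries 71, 77 and 84. At 10 counts or more there were 44, 46 and 43 in antisense and 28, 27 and 30 in sense. Every antisense library thus had more of them detected than any sense library, beside a mean depth without Gas5 that was 1.22 times higher.

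The summed amount differed less than the number detected. All 310 pseudogenes together came to 256, 288 and 218 CPM in antisense against 263, 180 and 253 CPM in sense, which is 254 ± 35.4 against 232 ± 45.2 CPM (mean ± SD, n = 3), and the groups overlap. Their parents together came to 1359 ± 93.9 CPM in antisense against 1448 ± 132 CPM in sense, again overlapping. Of all counts given to pseudogenes or parents, the pseudogenes took 15.7% ± 1.12 in antisense and 13.7% ± 1.31 in sense, and the groups were narrowly apart. Over the 36 pseudogenes above 0 in every library and their parents the order of the 2 means was the other way, at 20.1% and 21.5%.

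**Figure D1:**
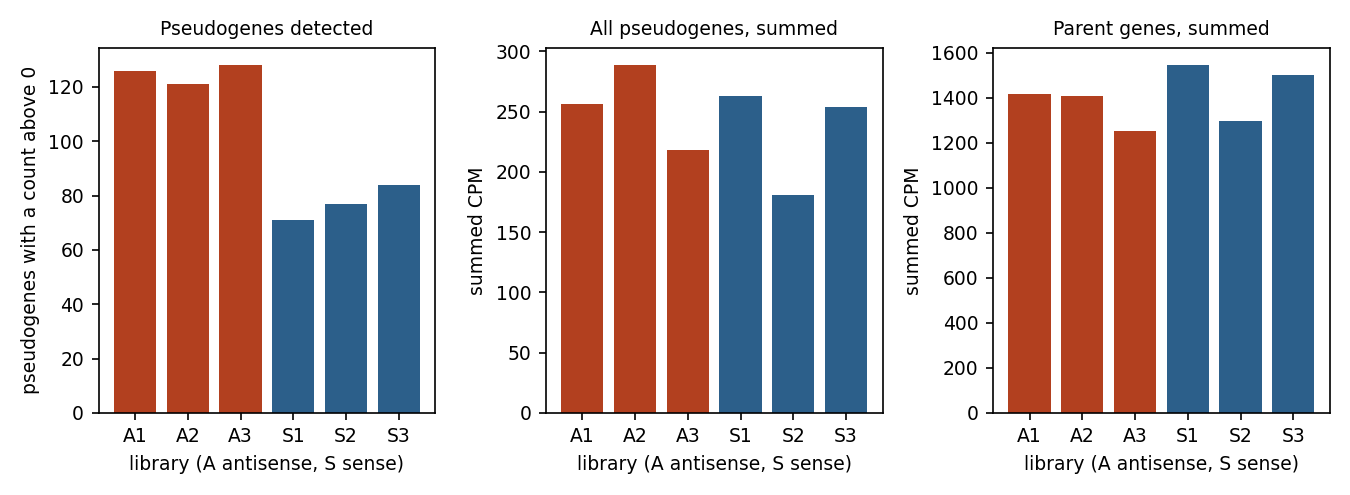
Bars give, for each of the 3 antisense (A) and 3 sense (S) libraries, the number of pseudogenes with a count above 0, the summed CPM of all 310 pseudogenes and the summed CPM of their 64 parents. The antisense libraries hold 121 to 128 detected pseudogenes and the sense libraries 71 to 84, while both summed levels overlap between groups.

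The number of copies per parent ranged widely. Rpl31 led with 24 copies, of which 18 had a count above 0 and 2 enough counts to be tested, followed by Rps12 with 18 copies, Rpl21 with 15, and Rpl23a and Rpl7a with 14 each. Rps2, a small subunit protein at the mRNA entry side, had 12 copies, of which 10 were above 0 and 4 were tested. The copies of Rps2 summed to 48.1 ± 4.01 CPM in antisense and 52.5 ± 15.6 CPM in sense, the highest sum of any parent, or 18.9% and 22.6% of the pseudogene total. Copies of Rpl3, which reaches towards the peptidyl transferase centre, came next with 28.4 ± 5.55 and 35.5 ± 11.2 CPM, all from Rpl3-ps1. The 24 copies of Rpl31 summed to 10.7 ± 4.24 and 8.21 ± 3.19 CPM. Across the 64 parents, Spearman's rho between the parent's mean CPM and the summed CPM of its copies was 0.11, and between the parent's CPM and the number of its copies 0.23. These values are across genes of the same 6 libraries, which are not independent replicates, and CPM is not scaled by length.

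A filter on low counts left 38 of the 310 pseudogenes for testing, named after 27 parents. Their mean level ran from 1.03 to 31.9 CPM with a median of 2.59 CPM, against a median of 12.1 CPM over all 20049 genes tested. In edgeR's quasi-likelihood test at an adjusted p below 0.05, 8 of the 38 were higher in antisense, 1 was lower and 29 did not pass the test. Over all genes tested, 18.2% were higher and 4.35% lower. The median log2 difference of the 38 was 0.00 and that of all genes -0.01. In 9 of the 38 all 3 antisense libraries lay above all 3 sense libraries, and in 2 all lay below, where the shares over all genes were 23.4% and 13.2%. The ninth of the former is Rpl19-ps3, at 3.84 ± 0.893 CPM in antisense against 2.19 ± 0.0231 CPM in sense, and the pair below is Rps2-ps10 and Rpl13-ps1, the latter at 1.01 ± 0.436 against 2.20 ± 0.408 CPM (edgeR adjusted p = 0.0897 for Rpl19-ps3 and 0.0666 for Rpl13-ps1). Among the 8 higher ones, 7 reached the filter's level in all antisense libraries and in no sense library, so they could enter the test only by being high in antisense, and the count of 8 says nothing more about the pseudogenes as a set. The exception, Rps27a-ps2, also reached it in 1 sense library, but could not have entered the test on its sense libraries alone. By subunit, 2 of 17 tested large subunit pseudogenes and 6 of 21 small subunit ones were higher, a split of the same 8 under the same limit. With no filter, counts in all 3 antisense libraries beside 0 in all sense libraries were found for 18 of 195 large and 6 of 115 small subunit pseudogenes.

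**Figure D2:**
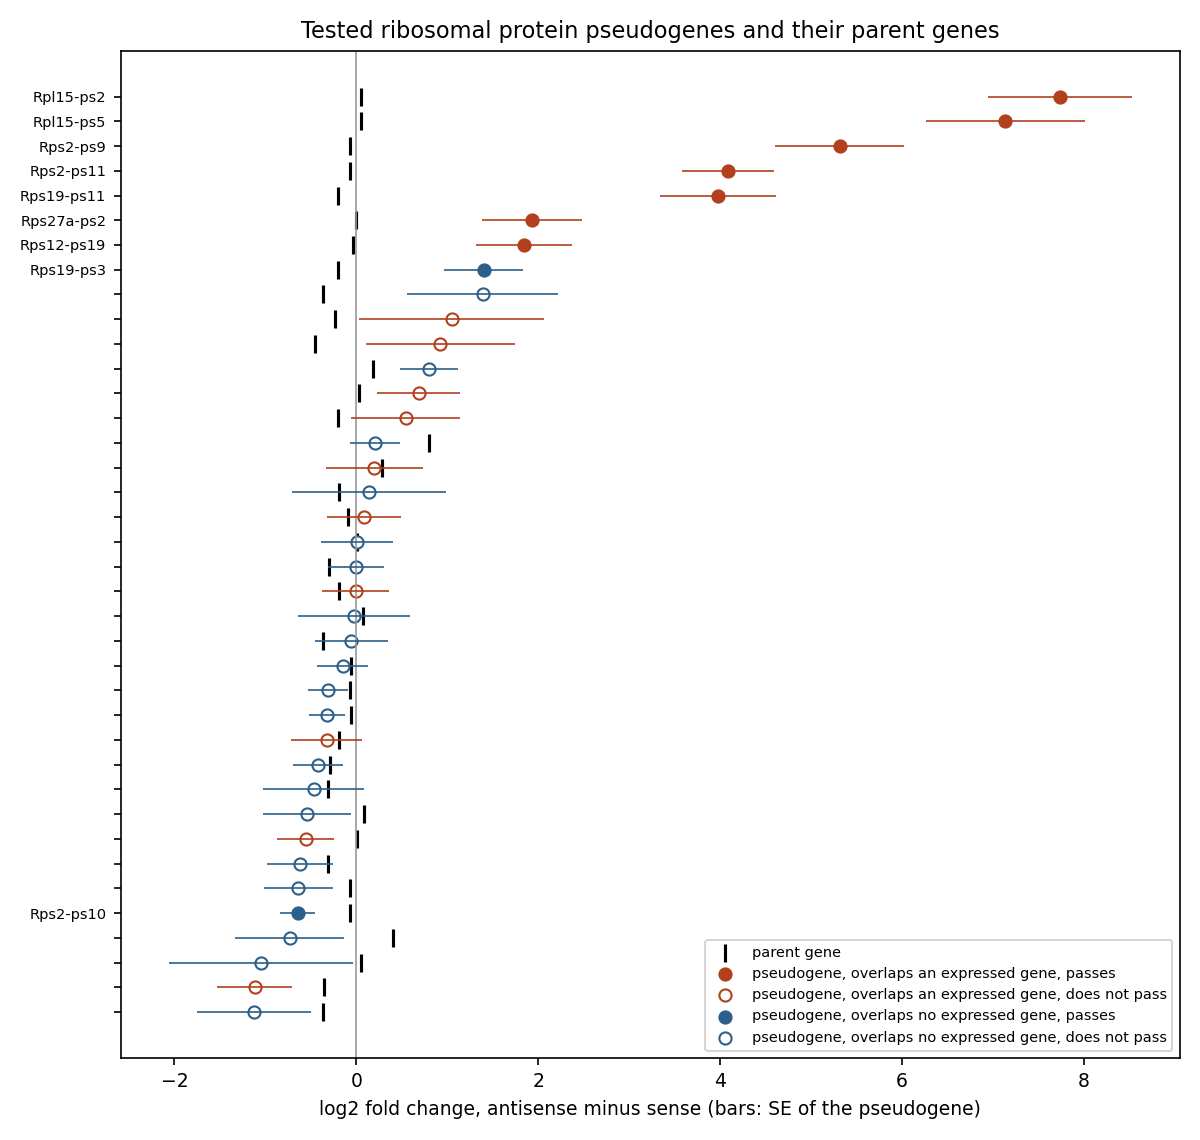
Circles give the log2 fold change (antisense minus sense) of each of the 38 tested pseudogenes with its standard error, filled where the adjusted p was below 0.05 and coloured by whether the pseudogene overlaps an expressed gene, and black ticks give the parent gene; the 9 that passed are named. The pseudogenes run from -1.13 to 7.74 while the ticks of their parents run from -0.45 to 0.80.

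The 2 higher large subunit pseudogenes were both copies of Rpl15 and had no count in sense, so their fitted fold changes depend on the prior count and the floor gives the bound. Rpl15-ps2, a copy of the Rpl15 mRNA, was counted at 31.3, 31.9 and 25.1 in the antisense libraries (4.05, 4.09 and 3.33 CPM) and at 0 in all 3 sense libraries. It was at least 23.8-fold higher in antisense when sense was set at a floor of 3 counts over the group (edgeR log2 fold change 7.74, SE 0.789, adjusted p = 8.72e-06). Rpl15-ps5, from the same parent, was at 2.22, 3.19 and 2.13 CPM in antisense and 0 in sense, at least 15.7-fold higher by the same floor (log2 fold change 7.14, SE 0.873, edgeR adjusted p = 3.82e-05). Rpl15 itself was at 41.7 ± 2.50 CPM in antisense against 40.2 ± 9.06 CPM in sense, for a log2 difference of 0.05 that did not pass (edgeR adjusted p = 0.836). The groups were fully apart for both copies and overlapped for the parent. Rpl15-ps2 lies at chr9:72060561-72061620 within the span of Tcf12, a basic helix-loop-helix transcription factor gene, and Rpl15-ps5 at chr7:97594835-97595441 within Rsf1, which encodes a chromatin remodelling subunit. Positions and gene spans are from RefSeq GRCm38.p6, and the table used gives no exons, so placement in an exon or intron of the surrounding gene was not read.

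Copies of Rps2 were found on both sides. Rps2-ps11 (chr9:108358158-108359095, within the deubiquitinase gene Usp4) was at 5.10, 4.09 and 5.33 CPM in antisense against 0.314, 0.465 and 0 CPM in sense, for a log2 fold change of 4.09 with a standard error of 0.509 (edgeR adjusted p = 2.04e-05). Rps2-ps9 (chr17:27784399-27785285, within Ilrun) was at 3.14, 1.92 and 3.46 CPM in antisense, while sense held 1 count in 1 library. The ratio of normalised counts for Rps2-ps9 was 52.8, with an exact 95% counting interval of 9.16 to 2119, and the edgeR log2 fold change was 5.32 (SE 0.712, adjusted p = 3.93e-05). Antisense libraries lay above all sense libraries for both of these copies. Rps2-ps10, on chromosome 18, was the only tested pseudogene lower in antisense, at 10.9, 17.1 and 14.7 CPM against 28.1, 21.1 and 17.4 CPM in sense, for a log2 fold change of -0.65 with a standard error of 0.194 (edgeR adjusted p = 0.0252). Its groups were narrowly apart, 17.1 CPM being the highest antisense and 17.4 CPM the lowest sense value. That call was lost when antisense library 1 or sense library 1 was left out (edgeR adjusted p = 0.112 and 0.136), and scaling by library totals alone turned the value to 0.09.

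The parent Rps2 was at 27.7, 17.5 and 14.7 CPM in antisense against 17.8, 19.4 and 25.9 CPM in sense, overlapping throughout, with a log2 difference of -0.07 (edgeR adjusted p = 0.860). Rps2-ps13 was the most abundant copy, at 23.2 ± 4.64 and 28.8 ± 10.7 CPM, and did not pass (log2 difference -0.31, edgeR adjusted p = 0.366). It did pass as lower once sense library 2 was left out (adjusted p = 0.0394). Among the untested copies, Rps2-ps6 had 49 counts in antisense and 15 in sense, and Rps2-ps5 and Rps2-ps3 had none.

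Rps19, whose mutation is a known cause of Diamond-Blackfan anaemia, gave 2 higher copies. Rps19-ps11 (chr10:43373445-43373957, within Pdss2, a gene of coenzyme Q synthesis) was at 1.57, 2.55 and 1.73 CPM in antisense against 0, 0.155 and 0.170 CPM in sense, or 45 against 2 counts. Its ratio of normalised counts was 18.3, with a 95% counting interval of 4.78 to 156, and its log2 fold change 3.98 (SE 0.637, edgeR adjusted p = 0.000194). Rps19-ps3 (chr4:147821777-147822202) was at 1.70, 1.92 and 1.998 CPM against 0.314, 0.775 and 1.02 CPM, for a log2 fold change of 1.40 with a standard error of 0.437 (edgeR adjusted p = 0.0309), and was the single higher pseudogene outside any expressed gene. Both copies showed no overlap between groups, but the call of Rps19-ps3 was lost when any 1 library other than sense library 3 was left out (edgeR adjusted p = 0.0683 to 0.197). That call was lost also in DESeq2 (adjusted p = 0.138) and with no filter on low counts (edgeR adjusted p = 0.0663). Rps19 was at 28.5 ± 1.97 CPM in antisense against 32.9 ± 1.09 CPM in sense, with a log2 difference of -0.21 that did not pass (edgeR adjusted p = 0.211), and its groups were also apart, in the other direction.

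Rps27a-ps2 and Rps12-ps19 completed the higher group. Rps27a, which is made as a fusion with ubiquitin, has its copy Rps27a-ps2 at chr9:83409622-83410164 within Lca5, a gene of the primary cilium. The copy was at 3.27, 5.49 and 4.93 CPM in antisense against 0, 1.39 and 2.21 CPM in sense, for a log2 fold change of 1.93 with a standard error of 0.551 (edgeR adjusted p = 0.0187). It no longer passed without antisense library 2 (edgeR adjusted p = 0.0684) or in DESeq2 (adjusted p = 0.242). Rps12-ps19 (chr11:75070803-75071298), within Smg6, which encodes an endonuclease of nonsense-mediated decay, was at 2.09, 1.40 and 1.87 CPM against 0.314, 0.155 and 1.02 CPM, for a log2 fold change of 1.85 with a standard error of 0.529 (edgeR adjusted p = 0.0191). Leaving out antisense library 1, sense library 1 or sense library 2 ended that call (edgeR adjusted p = 0.0749, 0.114 and 0.103), as did DESeq2 (adjusted p = 0.0671). Rps12-ps19 was also not among those called with Gas5 left out of the totals. Each pair of groups was free of overlap, and the parents Rps27a and Rps12 had log2 differences of -0.00 and -0.04 that did not pass. Rpl15-ps2, Rpl15-ps5, Rps2-ps9, Rps2-ps11 and Rps19-ps11 passed with every single library left out in turn. All of these copies reached the filter's level in antisense libraries alone. Passing again on parts of the same libraries is therefore no independent support for their calls.

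**Figure D3:**
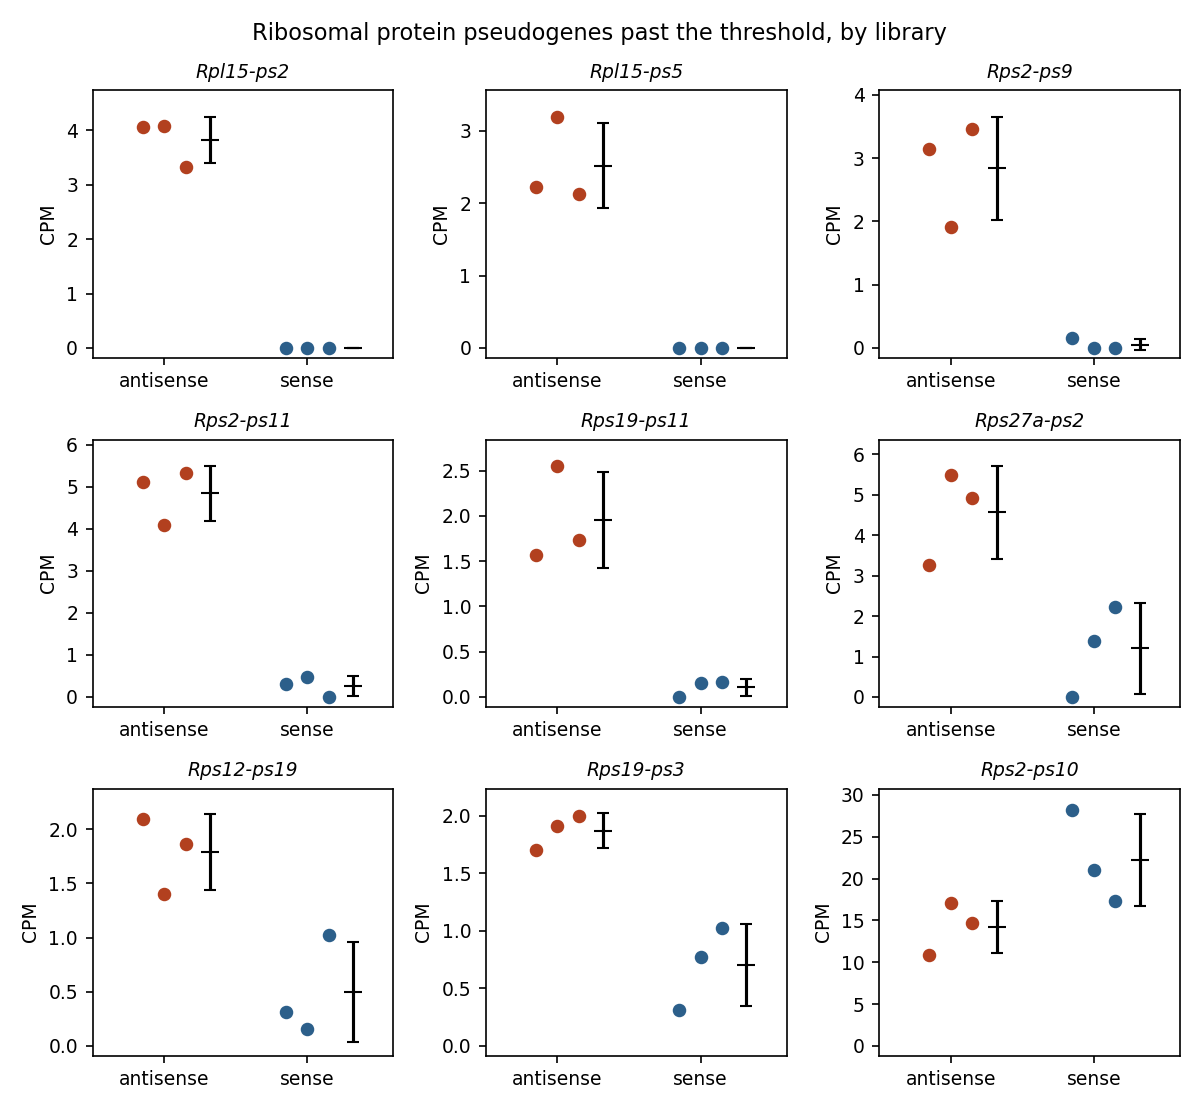
Each panel shows 1 of the 9 pseudogenes that passed, with 1 point per library in CPM (antisense left, sense right) and a bar for mean ± SD (n = 3). In the first 8 panels every antisense point lies above every sense point, and for Rps2-ps10 every antisense point lies below.

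None of the 7 genes that contain a higher pseudogene passed the test (edgeR adjusted p = 0.0736 to 0.788). Tcf12 was at 175 ± 7.99 CPM in antisense against 181 ± 6.85 CPM in sense, for a log2 difference of -0.04, and Rsf1 at 115 ± 3.05 and 127 ± 10.2 CPM, a log2 difference of -0.14. Usp4 differed by -0.23, Ilrun by -0.26, Pdss2 by 0.15, Lca5 by 0.11 and Smg6 by -0.07 on the log2 scale. The difference between a pseudogene and the gene around it was not tested.

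Counted over all pseudogenes with a position, 51 overlapped a gene expressed at a mean of 10 CPM or more and 251 did not. Of the 51, 17 were tested, 7 were higher in antisense (41.2%) and 10 did not pass, and the median log2 difference was 0.93. Over all genes that overlap an expressed gene, 35.4% of those tested were higher and the median log2 difference was 0.20. Of the 7, all but Rps27a-ps2 reached the filter's level in no sense library. Neither the share nor the median of the 17 can therefore be read against that of all genes. Of the 251, 21 were tested, 1 was higher (4.76%), 1 was lower and 19 did not pass, around a median of -0.31. Among all tested genes without such an overlap, 9.77% were higher, around a median of -0.07. By detection alone, with no filter on level, 23 of the 51 were seen in antisense only and 0 in sense only. Among the 251, 60 were seen in antisense only and 18 in sense only. Of all 5452 rows that overlap an expressed gene, 1019 were seen in antisense only and 80 in sense only, and of all 32336 rows that do not, 3014 and 851. Of the 76 named pseudogenes of other genes that overlap an expressed gene, 26 were seen in antisense only and 2 in sense only. These sets were not matched for level. Counts in all 3 antisense libraries beside 0 in all sense libraries were found for 15 of the 51 and 9 of the 251, beside 721 of the 5452 and 711 of the 32336. Among named pseudogenes of other genes, they were found for 17 of the 76 inside expressed genes and 23 of the 1145 outside. The reverse pattern was found for 0 of 310 pseudogenes and 45 of all 49489 rows. With the surrounding gene required to reach 50 CPM, 8 tested pseudogenes remained in the overlapping class, of which 4 were higher.

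**Figure D4:**
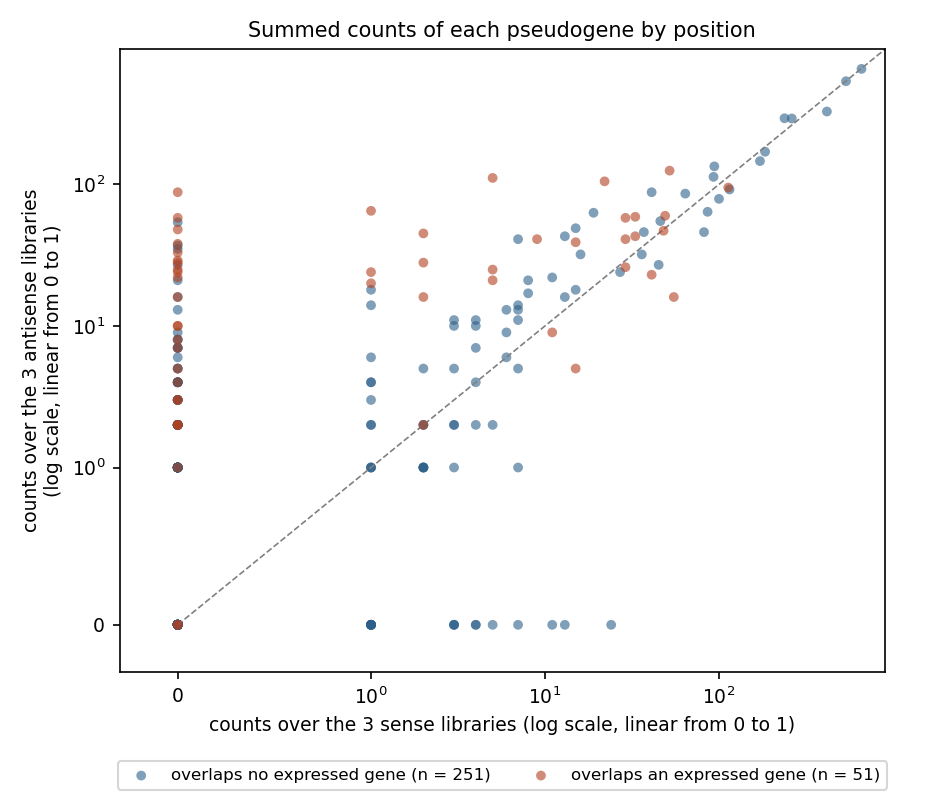
Each point is 1 pseudogene with a position, by its counts summed over the 3 sense libraries (horizontal) and over the 3 antisense libraries (vertical), on axes that are logarithmic above 1 and linear from 0 to 1, with a dashed line of equal counts. Points of the 51 pseudogenes that overlap an expressed gene stand at 0 sense counts in 23 cases with antisense counts, and none stands at 0 antisense counts with sense counts.

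Pseudogenes inside expressed genes did not all behave alike. Rpl14-ps1 (chr7:45324958-45325651, within Trpm4, a calcium-activated cation channel gene) was at 5.23, 7.41 and 3.60 CPM in antisense against 0, 0 and 8.86 CPM in sense, for a log2 difference of 0.93 that did not pass (edgeR adjusted p = 0.479). Rpl28-ps1 (chr1:128038527-128039022, within Zranb3) was at 4.11 ± 1.75 and 6.09 ± 1.36 CPM, a log2 difference of -0.56 (edgeR adjusted p = 0.242). Rpl31-ps12, the copy whose upstream sequence is printed above, lies at chr16:16819713-16820196 within Spag6l and was at 1.70, 2.43 and 1.998 CPM in antisense against 1.42, 3.87 and 2.38 CPM in sense, for a log2 difference of -0.32 (edgeR adjusted p = 0.614). Its parent Rpl31 was at 16.8 ± 3.40 and 19.2 ± 3.13 CPM, a log2 difference of -0.19. All of these groups overlapped.

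The 10 most abundant tested pseudogenes carried most of the signal in sense and less of it in antisense. They held 46.3% ± 4.47 of all pseudogene counts in antisense and 63.8% ± 6.72 in sense (mean ± SD, n = 3), with no overlap between groups. Scaled per kilobase of gene span, at which single-exon copies can be compared, Rps2-ps13 stood at 24.4 and 30.2 CPM per kilobase in antisense and sense, Rpl3-ps1 at 21.5 and 26.9, Rps2-ps10 at 14.97 and 23.4, Rpl10-ps3 at 16.6 and 18.6 and Rps23-ps1 at 14.5 and 19.6. Rps2-ps11, the most abundant of the 5 pseudogenes called with every library left out, stood at 5.16 and 0.277 CPM per kilobase.

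Of these 10, Rps2-ps10 passed and the other 9 did not. Rpl3-ps1 (chrX:13202518-13203837) was at 26.5, 34.6 and 24.0 CPM in antisense against 42.8, 22.6 and 41.0 CPM in sense, for a log2 difference of -0.32 (SE 0.200, edgeR adjusted p = 0.297), which passed as lower without sense library 2 (adjusted p = 0.0160). Its parent Rpl3 differed by -0.06. Rpl10-ps3 (chr9:50344226-50344984), from a gene whose protein joins the large subunit late in its maturation, was at 13.9, 17.1 and 6.93 CPM against 17.1, 9.30 and 15.8 CPM, a log2 difference of -0.15. Rpsa-ps10 (chr3:150072590-150073617), whose parent was also described as a laminin receptor, was at 10.2, 20.3 and 7.46 CPM against 17.3, 9.76 and 11.1 CPM, a log2 difference of -0.00. Libraries of 1 group spread over more than the gap between groups in each of these 3 copies. Copies of the small subunit genes Rps23 and Rps7 and the large subunit gene Rpl17 were also below their sense means without passing. Rps23-ps1 was at 7.39 ± 2.60 CPM against 9.96 ± 3.38 CPM, Rps7-ps3 at 6.31 ± 3.74 against 9.22 ± 6.41 CPM and Rpl17-ps5 at 4.02 ± 2.42 against 6.14 ± 1.5 CPM. Their log2 differences were -0.42, -0.54 and -0.61, with edgeR adjusted p = 0.324, 0.482 and 0.265. Without antisense library 1, Rpl17-ps5 passed as lower at -1.20 (edgeR adjusted p = 0.0291).

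Of the 64 parents, 4 passed, and tested copies exist for Rpl29, Rpl13 and Rps18. The parent Rpl29, a large subunit gene, was at 11.4, 12.5 and 10.8 CPM in antisense against 7.70, 6.51 and 5.62 CPM in sense, for a log2 fold change of 0.80 with a standard error of 0.192 (edgeR adjusted p = 0.00596), with the groups apart, and passed under every alternative run. Rpl29-ps2 (chr13:4614127-4614793) was at 6.41, 4.98 and 6.13 CPM against 4.25, 3.72 and 7.32 CPM, overlapping, with a log2 difference of 0.20 (edgeR adjusted p = 0.662). All 64 parents were tested, 2 were higher and 2 lower, and the median log2 difference was -0.10. Rps4l, the other higher one, is itself typed as a transcribed pseudogene by RefSeq and lies within Tmtc1. It was at 1.31, 2.04 and 1.87 CPM in antisense against 0.629, 0.310 and 0.511 CPM in sense, for a log2 fold change of 1.81 (edgeR adjusted p = 0.00831), and its own copy Rps4l-ps was at 0 in every library. The call of Rps4l was lost in DESeq2 (adjusted p = 0.0642) and without sense library 2 (edgeR adjusted p = 0.0595), and it had too few counts to be tested with Gas5 left out of the totals or with a minimum count of 50. Rpl13 and Rps18 were lower, with log2 fold changes of -0.35 and -0.37 (edgeR adjusted p = 0.0425 and 0.0413), calls that were both lost with Gas5 left out of the totals, with another filter and with DESeq2. With library totals both turned to the higher side without passing, at 0.36 and 0.34, where the median of all genes was 0.69. Their tested copies did not pass: Rpl13-ps1 had a log2 difference of -1.12, and Rps18-ps3, Rps18-ps5 and Rps18-ps6 had 1.39, -0.05 and -1.13. In the list of 85 cytosolic ribosomal protein genes, which does not hold Rps4l, 82 were tested, of which Rpl29 was higher, Rpl13 and Rps18 were lower and 79 did not pass, around a median of -0.11. Across the 38 tested pseudogenes, Spearman's rho between the log2 difference of the copy and that of its parent was 0.11, over values from the same 6 libraries in which several copies share a parent.

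The ratio of a pseudogene to its parent within a library does not depend on how libraries are scaled, apart from the 0.5 CPM added to both. For the 9 pseudogenes that passed, the ratio restates the choice of those pseudogenes and is given as a description. The log2 ratio of Rps12-ps19 to Rps12 was -3.84 ± 0.253 in antisense and -5.17 ± 0.622 in sense, and that of Rps19-ps3 to Rps19 was -3.61 ± 0.119 and -4.84 ± 0.448. Neither pair of groups overlapped. Both copies were below 0.5 CPM in at least 1 sense library, so the added 0.5 CPM weighs on these ratios too. With 1 CPM added instead, the difference fell from 1.32 to 0.97 for Rps12-ps19 and from 1.23 to 0.98 for Rps19-ps3. The other 6 higher pseudogenes were at 0 in at least 1 sense library, where the ratio is set by the added 0.5 CPM, and no sense ratio is given for them. The ratio of Rps2-ps10 to Rps2 was -0.45 ± 0.750 in antisense and 0.07 ± 0.607 in sense, and overlapped. Of the 21 ratios compared, the 12 of named pseudogenes that had not passed overlapped too, with a smallest exact two-sided permutation p of 0.30, or 0.70 after Benjamini-Hochberg adjustment over the 21; 3 against 3 libraries cannot go below 0.10.

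A count of 0 in 1 library beside 10 or more in another of the same group was frequent in these rows. It occurred in 10 of the 38 tested pseudogenes (26.3%), against 0 of 64 parents, 119 of 20011 other tested genes (0.595%) and 7 of 110 tested pseudogenes of other named genes (6.36%). Among other tested rows typed as processed pseudogenes by the authors it occurred in 27 of 920 (2.93%). These sets were not matched for level: the median was 2.59 CPM for the tested pseudogenes, 12.1 CPM over all tested genes and 19.4 CPM for the parents. Rpl34-ps1 had counts of 57.4, 56.4 and 0 in antisense and 37.3, 31.0 and 25.3 in sense, while its parent Rpl34 had 88.5, 67.7 and 95.01 and then 64.5, 60.3 and 69.6. Rpl31-ps8 had 0, 44.8 and 40.6 in antisense and 45.9, 17.6 and 0 in sense. In Rpl14-ps1, described above, the 2 zeros in sense stood beside 51.9 counts in the third library, and leaving that library out gave a log2 difference of 8.28 (edgeR adjusted p = 8.4e-05). Rps27a-ps2, with 0, 9.37 and 12.9 counts in sense, is the 1 among these 10 that passed. The pseudogenes with such zeros had standard errors of up to 1.02 on the log2 scale, which limits what a test can find in them.

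Counts in all 3 antisense libraries beside 0 in all sense libraries were seen in 24 of the 310 pseudogenes, beside 2306 of all 49489 rows. They were seen also in 780 of 9620 other rows typed as processed pseudogenes by the authors, and in 46 of 1336 named pseudogenes of other genes. Of the 24, only Rpl15-ps2 and Rpl15-ps5 had enough counts to be tested. The largest of the others was Rpl7a-ps9, with 19.7, 6.02 and 21.96 counts, at least 13.01-fold higher in antisense by the floor of 3 counts, which lies within Cpeb1, a regulator of polyadenylation and translation in neurons. Rpl27a-ps4, within the nuclear import gene Tnpo1, had 8.87, 9.24 and 19.6 counts (at least 10.3-fold). Rpl19-ps12 had 7.49, 8.82 and 21.0 counts (at least 10.03-fold) and overlaps no expressed gene. In the other direction the largest was Rpl19-ps11, with 24.3 counts in sense library 1 and 0 in the other 5 libraries. With no filter on low counts, 199 pseudogenes were tested, of which 27 were higher and 4 lower (edgeR), beside 14.3% higher and 2.83% lower over all 35255 genes. The authors' deposited table gives an adjusted p for 104 of the 310, of which 16 were below 0.05 with a negative and 1 with a positive log2 fold change. Over all genes in the authors' deposited table the shares were 13.8% and 2.19%. Its sign runs opposite to the one used here for 19807 of 20049 genes, so negative there means higher in antisense, and Rps2-ps10 is the positive one, at 0.66 (adjusted p = 0.0431).

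Pseudogenes of other named genes, 1336 rows that carry "-ps" after another symbol, were compared to see whether the ribosomal protein copies stood apart. Of these, 110 were tested, 33 were higher and 3 lower, with a median log2 difference of 0.21. Within expressed genes 8 of 24 were higher (33.3%), beside 7 of 17 ribosomal protein copies. Outside expressed genes 25 of 81 were higher (30.9%), against 1 of 21 ribosomal protein copies. By detection there with no filter, 60 of 251 ribosomal protein copies and 119 of 1145 others were seen in antisense only. Seen in sense only were 18 and 51. Of the rows that the authors' deposited table types as processed pseudogenes, ribosomal protein copies left out, 920 were tested here, 455 were higher (49.5%) and 22 lower in edgeR. The shares called higher are over rows past the low-count filter, which rows near its level can pass by being high in antisense alone. They therefore cannot show whether the ribosomal protein copies stood apart, and the difference between them was not tested.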

How the data were processed

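The submitters' processing notes name Salmon, DESeq and GRCm38 without versions. For annotation, index, kit and strand setting: not given in the sources used here. The authors deposited estimated counts per gene for total RNA, and a comparison table with log2 fold changes, p-values and adjusted p-values, used only where named. Small RNA tables were not used, and no sample column of the total RNA table was left unused.

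Estimated counts were rounded. edgeR 4.0.16 (R 4.3.3) kept genes by filterByExpr with a minimum count of 10, scaled by TMM and tested antisense minus sense with the quasi-likelihood F test over all 20049 genes, with Benjamini-Hochberg adjustment at 0.05; the standard error is the log2 fold change over the square root of F. DESeq2 1.42.0, library totals, a minimum count of 50, no filter, Gas5 left out, a replicate block and each library left out were alternatives, and 1 CPM in place of 0.5 CPM, chosen after seeing the data, for the ratios. Folds against 0 use 3 counts over the group. Floors and intervals cover counting error only.

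Members, lists and rules were chosen with earlier results of these data known. Text names Gas5, pseudogenes that passed, the 10 most abundant tested, up to 6 tested inside expressed genes, their parents and hosts, and up to 3 ribosomal protein genes per direction that passed; others were chosen after their values were seen. A single pseudogene that this rule picks is not reported here by name and stays in the counts. Of the 310 pseudogenes, 302 matched RefSeq GRCm38.p6 by symbol. A gene counts as overlapping an expressed gene where another gene of the RefSeq table that overlaps its span has a mean of 10 CPM or more. Libraries with the same number did not deviate together (correlations 0.08, -0.10 and -0.01), and the numbers were not treated as pairs. No 2 libraries of the same group agreed within sampling noise over the tested genes, Gas5 included, and pairs across groups were not compared in this way.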

Additional observations from a re-analysis of the deposited data

How the results depend on the processing

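Low counts left 38 of 310 pseudogenes to test, and 202 had any count. With a minimum count of 50, 7 were tested, none of them among the 8 higher ones. The number of pseudogenes higher in antisense, 8, became 17 with library totals alone, 0 with a minimum count of 50, 27 with no filter and 5 with DESeq2, and 8 to 16 with each library left out, the 16 without sense library 3. It was 7 with Gas5 left out of the totals, where Rps12-ps19 was not among those called. With the replicate block it was also 7, and the call of Rps19-ps3 ended (edgeR adjusted p = 0.0785). The 1 lower became 0 with library totals or a minimum count of 50, 4 with no filter and 1 to 3 with each library left out. Library totals moved the median of all genes to 0.69 on the log2 scale. They reversed Rps2-ps10 to 0.086 (edgeR adjusted p = 0.764) and Rpsa-ps10 to 0.75 (adjusted p = 0.0220). Parents higher, 2, became 40 with library totals and 1 with Gas5 left out, with a minimum count of 50 and with DESeq2, and 1 to 3 with each library left out, the 1 without sense library 2. Parents lower, 2, became 0 with library totals, with Gas5 left out, with a minimum count of 50, with no filter, with the replicate block and with DESeq2, and 0 to 5 with each library left out. Over all genes, 3658 higher became 12581 with library totals and 1795 with a minimum count of 50, and 873 lower became 63 and 402, and 492 to 1100 with each library left out. The pseudogene share of 15.7% and 13.7% became 20.1% and 21.5% over pseudogenes above 0 in every library. With a surrounding gene at 50 CPM, 17 tested overlapping pseudogenes became 8, and 7 higher became 4. Where sense was at 0 the ratio to the parent follows the pseudocount: for Rpl15-ps2 the difference was 3.03 with 0.5 CPM and 2.19 with 1 CPM. Causes other than the genes or libraries left out were not tested.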
